A study of Mus musculus with 6 samples.

Results

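The enzymes of glycolysis, the pentose phosphate pathway and the citrate cycle were followed in sciatic nerves of mice at postnatal day 14, in 3 arrays of P0 Cre Dicer mutants and 3 of control littermates. The members were all probes named for 1 of 45 listed genes. The array held 70 such probes for 41 of the genes, among 19057 named genes in all. Of these, 37 genes (52 probes) were among the 18420 brightest of 45281 probes and were tested. Hk2, Gpi1, Eno1 and G6pdx had no probe of that name and were not analysed here.

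In the mutants, the P0 Cre transgene expresses Cre recombinase in Schwann cells, the myelin-forming glia of the nerve. Their genotype label adds "F or N" after Dicer, which no label explains, so the exact Dicer allele is not known. The controls are littermates titled WT, and their Cre and Dicer alleles are not spelled out. Both sexes are named for every sample. The labels do not say how many animals gave the RNA of an array, so the p-values measure only the spread between these arrays, which may be technical. Dicer processes microRNA precursors into mature microRNAs.

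Glycolysis turns glucose into pyruvate in the cytosol. Pyruvate is then reduced to lactate or, through pyruvate dehydrogenase, feeds the citrate cycle in mitochondria. The pentose phosphate pathway branches off at glucose 6-phosphate and supplies NADPH for lipid synthesis and ribose for nucleotides. Schwann cells that build myelin export citrate from mitochondria as a source of acetyl-CoA for fatty acids and cholesterol, and lactate from glia can serve as fuel for axons.

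In the mutant nerves 3 of the 37 tested members rose, 8 fell and 26 did not pass the test. In the pentose phosphate pathway transketolase (Tkt) and transaldolase (Taldo1) fell. In upper glycolysis Aldoc, Aldoa, Pfkm and Tpi1 fell while Pfkp rose, and in lower glycolysis Pgk1 rose. Around the mitochondrion, citrate synthase (Cs) rose while Mdh2 and the kinase gene Pdk4 fell. Every difference is mutant minus control on the deposited log2-like scale, and a gene is represented by its brightest probe. A gene was called at an adjusted p under 0.05, from limma over the tested probes with Benjamini-Hochberg adjustment.

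The share of members called, 29.7%, lay below that of all genes. limma called 4068 of 10273 genes (39.6%), and 35.8% of the tested probes. Of all genes 22% were higher and 17.6% lower. The members' median difference was -0.10 against 0.01 over all genes. It was -0.0574 without mutant array 3, -0.0364 without control array 2 and mutant array 3 together, and 0.00483 with the mean of skeletal muscle markers as a covariate. The median size of their differences was 0.15 against 0.20. The groups did not overlap in 17 of 37 members (45.9%), against 55.2% of all genes. At the level of probes, 4 of the 52 were higher and 11 lower.

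**Figure D1:**
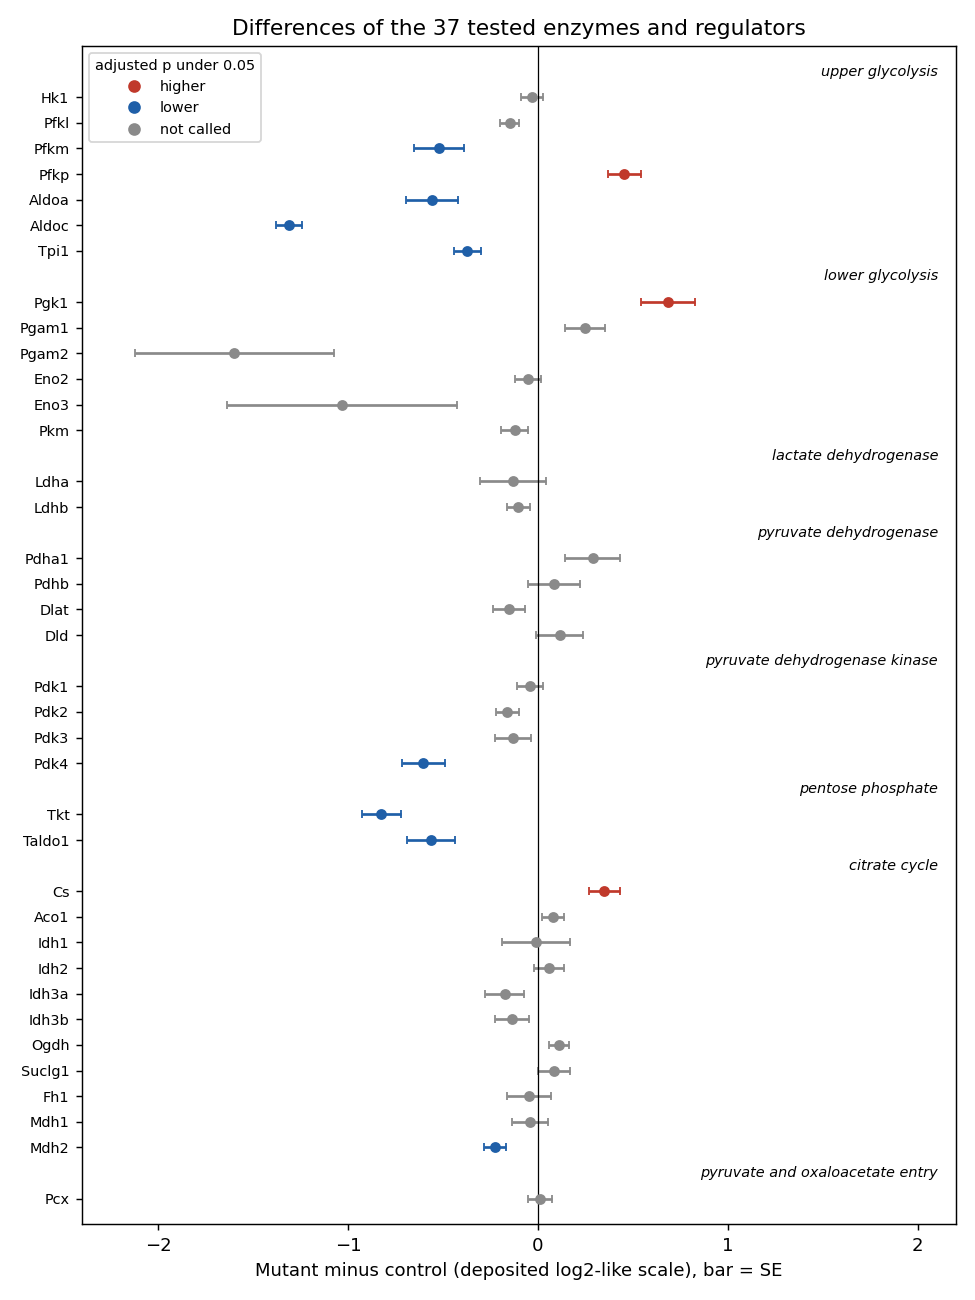
Difference between mutant and control on the deposited log2-like scale (x axis) for each of the 37 tested genes (y axis, by role), as points with bars for the SE of the limma fit over 3 and 3 arrays. Red marks the 3 genes called higher, blue the 8 called lower and grey the 26 not called, and Pgam2 and Eno3 have the widest bars.

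Across the tested probes, arrays correlated at 0.992 to 0.995 among controls, 0.973 to 0.993 among mutants and 0.912 to 0.942 between groups. The Schwann lineage marker Sox10 was bright in both groups, at 13.94 in controls and 13.98 in mutants, while the myelin gene Mbp fell from 15.79 to 14.46 and S100b from 10.10 to 8.91. Dicer1 had 2 tested probes, at -0.02 (limma adjusted p = 0.832) and -0.20 (adjusted p = 0.0458), and whether either lies in a deleted part is not known, so they do not check the labels. In whole nerve, fewer cells of a type and less RNA per cell cannot be told apart. Skeletal muscle genes were detected to very different levels, from Acta1 and Myl1 at 11.52 or above on every array to Mb, Myh8 and Casq1 near the dim end in mutants. Of 15 muscle markers 2 fell, Myh1 and Mb, and all 15 differences were negative. With the replicate block 9 were lower. Without mutant array 1, 6 were lower, and without mutant array 2 or 3 or control array 2 or 3, 1 was. The mean of the 15 ran from 11.39 to 12.57 in controls, highest in control array 2, and from 9.60 to 11.27 in mutants, lowest in mutant array 3.

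Promoter windows are shown for the called gene with the largest rise, Pgk1, and the pair with the largest falls, Aldoc and Tkt, because glycolytic promoters are a textbook site of the hypoxia response element. The sequences are RefSeq's (build GRCm38.p6), 250 bases before the first listed start, all on the plus strand. Pgk1 lies at chrX:106186850-106187099, Aldoc at chr11:78322823-78323072 and Tkt at chr14:30548881-30549130. Capitals mark ACGTG, called the core here, or its reverse complement CACGT, which overlap where CACGTG occurs.
Pgk1: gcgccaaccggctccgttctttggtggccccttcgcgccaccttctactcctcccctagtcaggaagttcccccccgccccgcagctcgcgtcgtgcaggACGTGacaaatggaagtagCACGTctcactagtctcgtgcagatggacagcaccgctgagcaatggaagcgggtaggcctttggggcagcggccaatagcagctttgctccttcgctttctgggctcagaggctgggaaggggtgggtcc
Aldoc: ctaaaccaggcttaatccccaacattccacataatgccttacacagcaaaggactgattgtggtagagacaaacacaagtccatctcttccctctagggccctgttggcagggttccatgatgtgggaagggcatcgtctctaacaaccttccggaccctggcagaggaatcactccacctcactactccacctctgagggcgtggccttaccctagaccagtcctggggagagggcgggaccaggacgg
Tkt: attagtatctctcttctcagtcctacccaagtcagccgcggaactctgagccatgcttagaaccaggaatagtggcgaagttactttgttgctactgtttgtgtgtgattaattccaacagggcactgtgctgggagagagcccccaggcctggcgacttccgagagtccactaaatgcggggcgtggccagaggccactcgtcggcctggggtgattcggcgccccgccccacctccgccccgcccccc

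The Pgk1 window holds the core at 2 places, beginning 150 and 131 bases before the start. The Aldoc and Tkt windows shown hold 0 of this form. Only ACGTG and CACGT were searched. The element's other form, GCGTG, was neither marked nor counted, and the Aldoc and Tkt windows both contain it. The promoter table listed 66 starts of 44 members, and 22 of these windows (33.3%), from 14 genes, held the core. Among all 32851 listed windows of the same length the share was 16.6%. Windows of 1 gene can overlap, and counted by gene the share was 31.8% of members against 18.5% of all 27025 listed genes. A gene counted if any of its listed windows held the core. Members had more windows per gene (66 for 44) than all genes (32851 for 27025), so this share favours them. Of the 8 members that fell, 2 had the core in a listed window, of the 3 that rose 1 did, and of the 25 not called with a listed window 9 did. A match is a description of letters and not a bound site, and base composition was not matched between the sets.

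Hexokinase opens the pathway by phosphorylating glucose. Hk1 was dim, at 8.65 ± 0.07 in controls and 8.62 ± 0.0442 in mutants (SD, n = 3 each), and was not called. Phosphofructokinase, the main control point of glycolysis, is built from 3 kinds of subunit, named after liver (Pfkl), muscle (Pfkm) and platelet (Pfkp). They did not move alike.

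Pfkm read 11.70, 12.11 and 11.75 in controls and 11.51, 11.32 and 11.17 in mutants. All mutant arrays lay below all controls, and the gene fell by 0.52 (SE 0.133, limma adjusted p = 0.0229). Its 2 dimmer probes were also called, at -0.42 and -0.41. Pfkp read 8.92, 9.15 and 9.11 in controls and 9.64, 9.48 and 9.42 in mutants. It was higher on every mutant array and rose by 0.46 (SE 0.087, adjusted p = 0.00764), while a dimmer Pfkp probe was at 0.15 (adjusted p = 0.0988). Pfkl stood lower on every mutant array, from 10.56 to 10.60 against 10.70 to 10.78, but missed the threshold (-0.15, SE 0.049, adjusted p = 0.0555). It was called with all probes tested (adjusted p = 0.0208) and after cyclic loess (0.038).

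Aldolase splits a hexose phosphate into a pair of trioses. Aldoc, the isoform known from brain, had the largest difference among the called members. It read 9.49, 9.33 and 9.55 in controls and 8.16, 8.15 and 8.13 in mutants, and fell by 1.31 (SE 0.068, limma adjusted p = 3.18e-05). The mutant values lie below the median of 8.24 of all probes, so the size of this fall depends on the floor of the scale. A second Aldoc probe was below the brightness filter, at 8.17 in controls and 8.13 in mutants (-0.04). Aldoc was the member called with a difference of at least 1, as 5.57% of all genes were.

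Aldoa, the widely expressed isoform that is abundant in muscle, read 12.14, 12.66 and 12.49 in controls and 11.77, 11.99 and 11.85 in mutants. It fell by 0.56 (SE 0.136, limma adjusted p = 0.0195), with no overlap. Triose phosphate isomerase, Tpi1, interconverts the trioses and read 13.54, 13.73 and 13.54 against 13.18, 13.24 and 13.28. It fell by 0.37 (SE 0.071, adjusted p = 0.00754). Its 2 dimmer probes pointed the same way but were not called, at -0.18 and -0.05. Pfkfb3, which makes the activator of phosphofructokinase, was below the brightness filter, at 8.22 in controls and 8.24 in mutants.

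Phosphoglycerate kinase makes the first ATP of the payoff phase, and Pgk1 had the largest rise. It read 11.36, 11.41 and 11.47 in controls and 12.38, 12.13 and 11.79 in mutants. Controls lay close together and mutants were spread, all above the controls, with a rise of 0.69 (SE 0.143, limma adjusted p = 0.0108). Leaving out single arrays kept the call. Of 3 Pgk1 probes 1 was tested. The others were below the brightness filter, near the floor of the scale, and differed by -0.06 and -0.01.

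Phosphoglycerate mutase follows. Pgam1, the broadly expressed form, read 9.94, 9.79 and 9.95 in controls and 10.31, 10.18 and 9.94 in mutants. The groups touched, and the difference of 0.25 was not called (SE 0.104, limma adjusted p = 0.11). A dimmer Pgam1 probe was higher by 0.31 (SE 0.076, adjusted p = 0.0186). The mean of both probes was called (0.28, adjusted p = 0.0194), and so was the brighter probe without mutant array 3 (0.35, adjusted p = 0.0224). The neuronal enolase gene Eno2 differed by -0.05 (SE 0.069), and pyruvate kinase, Pkm, by -0.12 (SE 0.070, adjusted p = 0.229).

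Pgam2 and Eno3, the muscle forms of mutase and enolase, varied far more between arrays of 1 group than the other members. Pgam2 read 10.82, 12.43 and 10.91 in controls and 9.93, 10.43 and 8.997 in mutants, a difference of -1.60 (SE 0.522, limma adjusted p = 0.0537). Eno3 read 10.40, 12.03 and 10.32 in controls and 10.61, 10.21 and 8.82 in mutants (-1.03, SE 0.604, adjusted p = 0.232). Both were highest in control array 2 and lowest in mutant array 3, the arrays with the highest and lowest muscle markers. With the replicate number as a block, Pgam2 was called at the same difference (adjusted p = 0.00756).

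Muscle markers moved with several glycolytic members, so the fit was repeated without control array 2 and mutant array 3, and with the muscle marker mean as a covariate. Both choices were made after seeing the data. Without the 2 arrays Pgam2 was at -0.68 (limma adjusted p = 0.0604) and Eno3 at 0.05. With the covariate they were at -0.51 and 0.33, and neither was called. Pfkm was at -0.31 (adjusted p = 0.081) without the arrays and -0.27 (0.126) with the covariate. Aldoa was at -0.43 (0.112) and -0.44 (0.13), so the sizes of both decreased and neither call held. Among mutants Pfkm was lowest in array 3, but Aldoa was lowest in array 1, where the muscle marker mean was highest (11.27). The muscle marker mean was lower on every mutant array (at most 11.27) than on any control (at least 11.39). Its effect as a covariate therefore cannot be cleanly told apart from that of the mutant group. Leaving arrays out also lowers the power of the test. Under the covariate Tpi1 (-0.35, adjusted p = 0.0557) and Pdk4 (-0.44, 0.0555) also just missed the threshold. In all, 4 members were lower without both arrays and 3 with the covariate. Each of these fits called 7 of the 37 members. The share called over all genes also fell, from 39.6% to 25.9% without both arrays and 30.4% with the covariate. Aldoc, Pfkp, Pgk1 and Tkt, 4 of the 11 called members, kept an adjusted p under 0.05 in limma in each of the 14 alternative fits. With a difference of at least 1 also required, Aldoc was the 1 of them that passed.

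**Figure D2:**
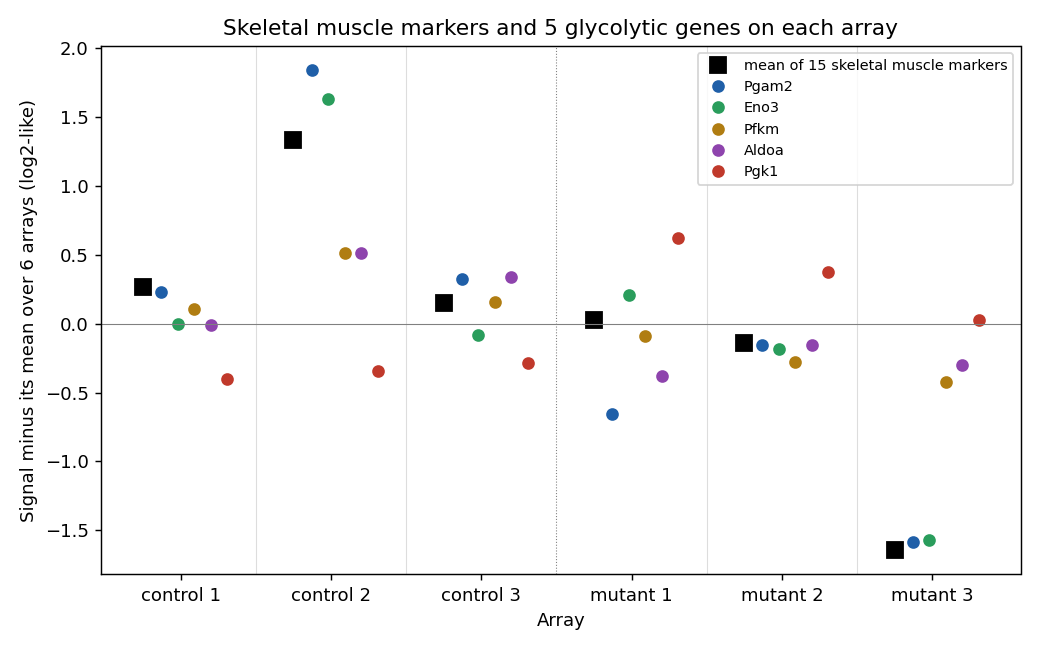
Signal of 5 glycolytic genes and the mean of 15 skeletal muscle markers on each of the 6 arrays (x axis), each given as its deviation from its own mean over the arrays (y axis, log2-like scale). Pgam2 and Eno3 lie highest in control 2 and lowest in mutant 3 like the black squares, Pfkm and Aldoa vary less, and Pgk1 is higher on every mutant array than on any control. Aldoa is highest in control 2 and lowest in mutant 1.

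Lactate dehydrogenase converts pyruvate to lactate. Ldha read 12.01, 12.45 and 12.04 in controls and 12.31, 12.05 and 11.75 in mutants, so the groups overlapped (-0.13, SE 0.172, limma adjusted p = 0.605). Its value was 0.15 without both muscle-extreme arrays and 0.23 with the muscle covariate, neither called. Ldhb, the heart form, was dim at 8.64 in controls and 8.54 in mutants (-0.10, SE 0.059). Neither gene had an unadjusted p under 0.05.

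The pyruvate dehydrogenase complex was measured by Pdha1 and Pdhb (the E1 subunits), Dlat (E2) and Dld (E3). limma called 0 of the 4, against 39.6% of all genes, and 0 had an unadjusted p under 0.05. Pdha1 was the most different, at 11.59, 11.63 and 11.73 in controls and 12.26, 11.88 and 11.68 in mutants (0.29, SE 0.144, adjusted p = 0.166). It was called without mutant array 3 (0.42, adjusted p = 0.0432). Dlat (-0.15) was called lower without mutant array 1 (-0.22, adjusted p = 0.0482). Pdhb and Dld were at 0.09 and 0.12, and Pdhb was called higher with the muscle covariate (0.38, adjusted p = 0.0222).

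The dehydrogenase kinases switch the complex off. Of 4 measured (25% called, against 39.6% of all genes), Pdk4, which is known to rise when tissues burn fat, was the member called. It read 9.36, 9.48 and 9.59 in controls and 9.06, 8.91 and 8.65 in mutants. It fell by 0.60 (SE 0.114, limma adjusted p = 0.00734), with no overlap. Pdk1 differed by -0.04 (SE 0.068), Pdk3 by -0.13 (SE 0.096) and Pdk2, near the dim end, by -0.16 (SE 0.061, adjusted p = 0.0823). Pdk3 was called lower without mutant array 1 (-0.23, adjusted p = 0.018), and Pdk2 with an intensity trend (adjusted p = 0.0293). Fat markers moved the same way as Pdk4. Of 7 measured, 2 fell (4 with the replicate block or without control array 3), the brown fat genes Ucp1 (-1.04) and Cidea (-0.91), and the mean of the 7 ran from 9.78 to 10.06 in controls and from 9.31 to 9.52 in mutants. The part of fat tissue in the Pdk4 difference was not tested.

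The pentose phosphate enzymes transketolase (Tkt) and transaldolase (Taldo1) shuttle carbon between pentoses and glycolysis. Tkt was bright, at 13.14, 13.27 and 13.42 in controls and 12.62, 12.39 and 12.35 in mutants. All mutant arrays were below all controls, and the gene fell by 0.82 (SE 0.102, limma adjusted p = 0.00122). Its second, dim probe fell as well, by 0.37 (SE 0.059). Taldo1 read 12.99, 12.95 and 13.003 in controls and 12.11, 12.58 and 12.55 in mutants. The controls were tight and mutant array 1 was lowest, with a fall of 0.56 (SE 0.126, adjusted p = 0.0141). The Taldo1 call was just lost without control array 1 or 3 (adjusted p = 0.0532 for each) and without both muscle-extreme arrays (0.0578). Pgd, the second dehydrogenase of the oxidative branch, was below the filter, at 8.20 in both groups.

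In the citrate cycle 1 of 11 tested members rose, 1 fell and 9 were not called (18.2% called, against 39.6% of all genes). Cs, which joins acetyl-CoA to oxaloacetate, read 10.96, 10.99 and 11.04 in controls and 11.49, 11.35 and 11.20 in mutants. It was higher on each mutant array and rose by 0.35 (SE 0.082, limma adjusted p = 0.0163). That call was lost without mutant array 2 (0.0511) or control array 1 (0.0645) or 2 (0.0578). Mdh2, the mitochondrial malate dehydrogenase, read 11.10, 11.10 and 11.02 in controls and 10.82, 10.93 and 10.79 in mutants. It fell by 0.22 (SE 0.058, adjusted p = 0.0247), and the call was lost without mutant array 3 (0.0665), control array 1 (0.0899) or control array 2 (0.0845), with an intensity trend (0.0829), and in both muscle alternatives (0.179 and 0.168).

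The other cycle members stayed within a difference of 0.17 in size. The aconitase gene Aco1, whose protein is the cytosolic form, was at 0.08. The NAD-dependent isocitrate dehydrogenase subunits Idh3a and Idh3b were at -0.17 and -0.14, and Idh2, the mitochondrial NADP form, was at 0.06. Idh3a was lower on every mutant array but not called (SE 0.101, limma adjusted p = 0.231), and its dimmer probe overlapped between the groups (-0.10). Ogdh, of the oxoglutarate dehydrogenase complex, was higher on every mutant array but not called (0.11, SE 0.052, limma adjusted p = 0.14). Suclg1, a succinyl-CoA ligase subunit, was at 0.09, fumarase (Fh1) at -0.05 and the cytosolic malate dehydrogenase Mdh1 at -0.04. Sucla2, the ATP-forming ligase subunit, was below the filter, at 8.27 in controls and 8.29 in mutants.

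Idh1, the cytosolic NADP-dependent isocitrate dehydrogenase, depended on 1 array. It read 11.59, 11.52 and 11.58 in controls and 12.004, 11.32 and 11.34 in mutants, and differed by -0.01 (SE 0.181). Without mutant array 1 it was called lower (-0.23, limma adjusted p = 0.0117). Pcx, pyruvate carboxylase, was dim and differed by 0.01 (SE 0.064), and Pck2, the mitochondrial phosphoenolpyruvate carboxykinase, was below the filter, at 8.06 and 8.09.

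**Figure D3:**
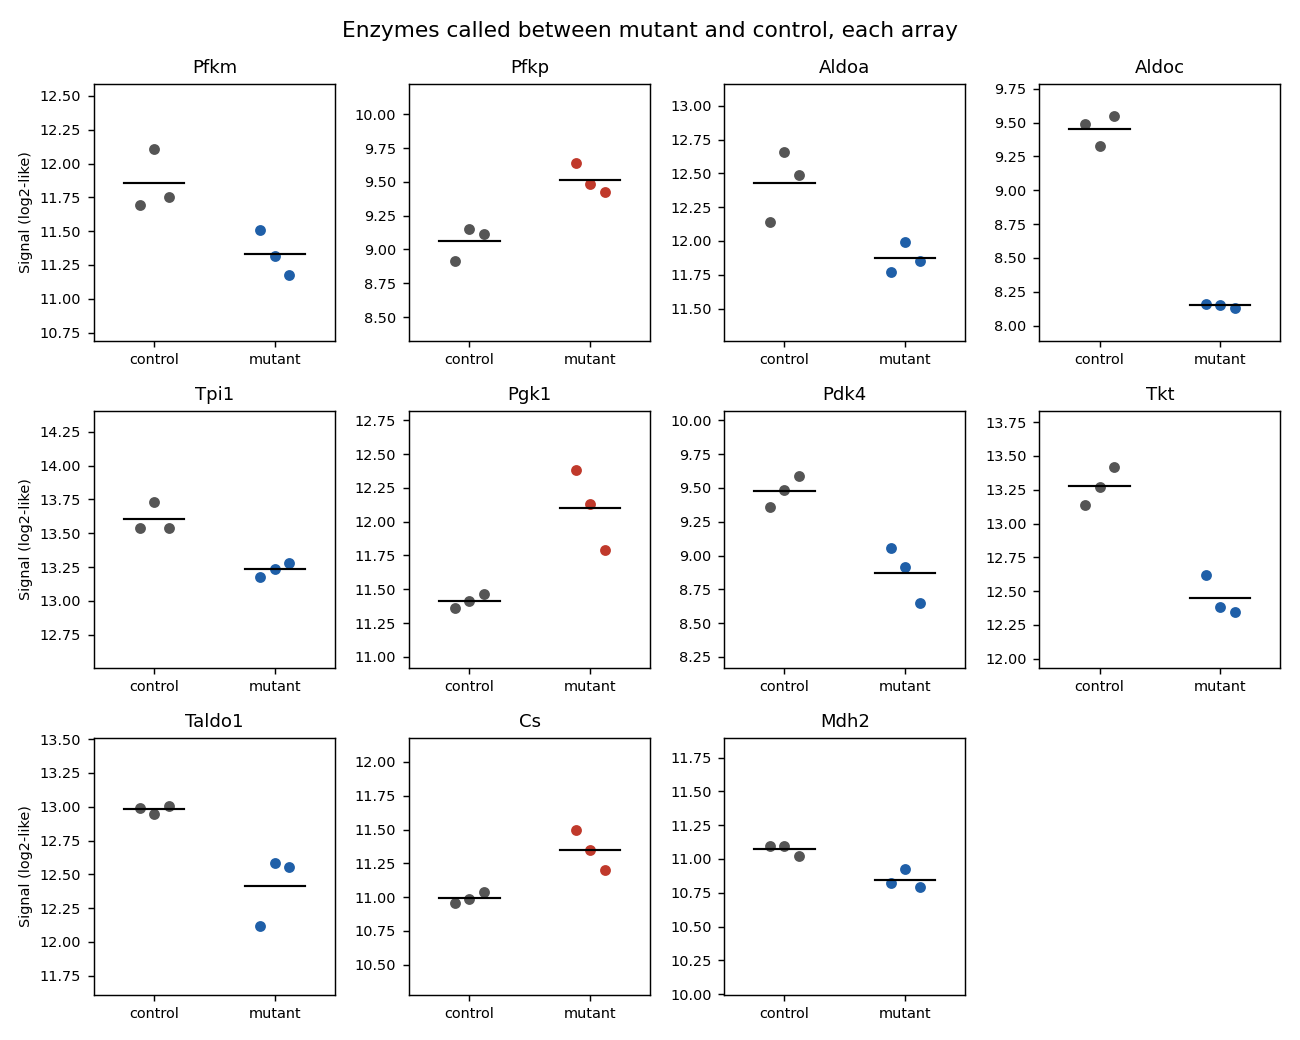
Signal on each array (points, y axis, deposited log2-like scale, with the same span of values in every panel) for the 11 members called between control (grey) and mutant (red for higher, blue for lower), with the group mean as a line. In each panel the 3 mutant arrays lie beyond the 3 controls, and Pgk1, Taldo1 and Pdk4 have the wider mutant spread.

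Isoforms of 1 step were compared by the within-array difference between their probes, in an exact 2-sided permutation test whose smallest p with 3 arrays against 3 is 0.1. Of 16 pairs listed, 13 could be tested, and adjustment over them can only raise p. In 8 pairs the mutant and control values did not overlap (exact permutation p = 0.1), while 55.2% of single genes did not overlap either. The pairs are not independent, since Pdk4 is in 3 of the 8 and Pfkl, Pfkm and Pfkp are in 2 each. The change of Pfkm was 0.98 below that of Pfkp (SE 0.098) and that of Pfkl 0.60 below it (SE 0.105). Aldoc changed by 0.75 more downward than Aldoa (SE 0.209), with Aldoc at the floor of the scale in mutants. Pdk4 changed more downward than Pdk1, Pdk2 and Pdk3, by 0.56, 0.44 and 0.47. The remaining pairs without overlap were Pfkl with Pfkm (0.37) and Pgam1 with Pgam2 (1.85, SE 0.671), the latter moving with the muscle markers. Ldha with Ldhb (-0.03, SE 0.223) and Idh1 with Idh2 (-0.07, SE 0.163) overlapped, as did Pdk1 with Pdk2, Pdk1 with Pdk3 and Pdk2 with Pdk3.

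Neighbouring genes of the same pathways were read from 8 further lists. Over all genes limma called 39.6%, with 22% higher and 17.6% lower. The shares called were 60% for other citrate cycle, 40% for pyruvate dehydrogenase, 57.1% for pentose phosphate and 50% for glycolysis genes. They were 9.09% for glycogen, 0% for the serine branch, 53.3% for hypoxia response and 40% for regulators of energy metabolism. Among other citrate cycle and carrier genes, 4 of 15 rose and 5 fell. The largest fall was that of Slc25a1, the carrier that exports citrate from mitochondria, from 11.42 ± 0.142 in controls to 9.24 ± 0.12 in mutants (-2.18, SE 0.094, limma adjusted p = 1.45e-05). The dicarboxylate carrier gene Slc25a10 fell by 1.32, Acly, which cleaves exported citrate to acetyl-CoA, by 0.86, and the succinate dehydrogenase subunit Sdhc by 0.49. The first 3 kept an adjusted p under 0.05 in each of the 14 alternative fits, where no minimum size was required. Without control array 1, 3 genes of this list were lower, where Sdhc lost its call (it did too without control array 3). Without mutant array 2 or any single control array, 2 were higher.

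Among other pyruvate dehydrogenase genes the phosphatases that switch the complex on moved in opposite directions. Pdp2 fell by 1.27 (SE 0.067, limma adjusted p = 3.44e-05), from 11.76 ± 0.102 to 10.49 ± 0.0502, and Pdp1 rose by 0.54 (SE 0.103, adjusted p = 0.00768). They were 2 of 5 tested, with a second gene higher without mutant array 3 and a second lower without mutant array 2. Of 7 other pentose phosphate and ribose genes, 1 rose and 3 fell. The ribose phosphate pyrophosphokinase genes Prps2 and Prps1 fell by 0.47 and 0.45, the epimerase gene Rpe, of the same non-oxidative branch as Tkt and Taldo1, by 0.37, and H6pd, the hexose dehydrogenase of the endoplasmic reticulum, rose by 0.41. Prps2 lost its call without control array 1 or 3. The isomerase gene Rpia, also of the non-oxidative branch and named after its value was seen, just missed the threshold (-0.26, limma adjusted p = 0.05005).

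Of 12 other glycolytic genes, 2 rose and 4 fell. Pfkfb4, a relative of Pfkfb3, rose by 0.53 and the mutarotase gene Galm by 0.50, and both kept an adjusted p under 0.05 in every alternative fit that tested them, where no minimum size was required. With the stricter brightness filter Galm was not tested. G6pc3 fell by 0.42. Gapdh, often used as a reference gene, was at -0.40 with an adjusted p of 0.0497 from limma and lost its call without any single array. The list had 2 lower without mutant array 2 or 3 or control array 1 or 2, and 1 lower in either muscle alternative. Among 11 glycogen genes 1 fell, the phosphorylase gene Pygb by 0.46, and 0 rose, while 2 had an unadjusted p under 0.05 in limma. Without mutant array 1, 2 of these were lower. limma called 0 of 5 genes of the serine branch, of which 3 had an unadjusted p under 0.05. Its brightest members were Psat1 at 0.20 (SE 0.094) and Phgdh at -0.22 (SE 0.075), and 1 gene was lower without mutant array 1.

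The hypoxia response list, which holds known regulators and targets of hypoxia-inducible factor, was split, with 3 of 15 higher and 5 lower. Together 53.3% of this list were called, against 39.6% of all genes. Hif1an, a hydroxylase that restrains the factor, rose by 1.02 (SE 0.048, limma adjusted p = 2.07e-05). Ndrg1, whose loss causes a demyelinating neuropathy, fell by 0.98 and the collagen hydroxylase gene P4ha1 by 0.53. Ddit4, a stress-induced brake on mTOR, rose by 0.75, and its call was lost without mutant array 2 or control array 1 or 2. With each of these 3 arrays left out in turn, 1 gene of the list was higher. Of 15 regulators of energy metabolism, 2 rose and 4 fell (40% called, against 39.6% of all genes). Ppargc1a, a coactivator of mitochondrial genes, rose by 0.68 (adjusted p = 0.0343), a call lost without mutant array 3 or any control array, where 0 were higher. Without mutant array 2, 1 was higher. Sirt3, a mitochondrial deacetylase, fell by 0.43, Foxo1 by 0.33 and Ppargc1b by 0.29.

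**Figure D4:**
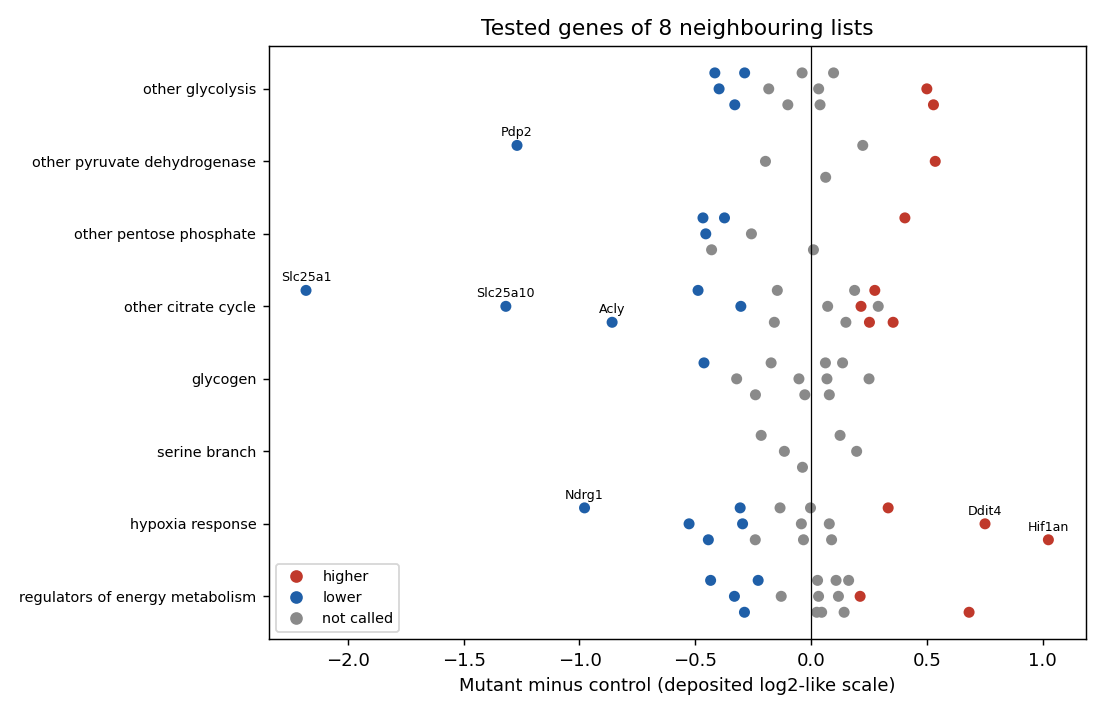
Difference between mutant and control (x axis, deposited log2-like scale) for each tested gene of 8 neighbouring lists (rows, points spread vertically for legibility), red for higher, blue for lower and grey for not called. Slc25a1, Slc25a10 and Pdp2 lie farthest to the left and Hif1an farthest to the right.

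Markers of other cell types also moved, where limma called 39.6% of all genes. Of 5 fibroblast and perineurial markers 2 rose, Lum (0.99) and Col1a1 (0.61), and their mean ran from 13.23 to 13.28 in controls and from 13.60 to 13.85 in mutants. Of 7 macrophage markers Cx3cr1 rose (0.77; 2 rose with the replicate block or without mutant array 1), with means of 10.05 to 10.24 and 10.20 to 10.38. Of 4 endothelial markers Cldn5 fell (-0.88), with means of 10.15 to 10.44 and 10.07 to 10.26. Pecam1 was called higher with the block and with the muscle marker covariate. limma called 0 of 5 red blood cell markers and 0 of 2 neuronal ones, with 0 at an unadjusted p under 0.05 in either. Without mutant array 3, 2 red blood cell markers were lower, and in either muscle alternative 3 were. The part of these cell types in the members' differences was not tested.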

How the data were processed

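RNA of 6 sciatic nerve samples was measured on Illumina mouse bead arrays. The authors deposited normalized values that resemble log2 intensities, from 7.96 to 15.91. The design text names RMA normalization and limma, and lumi 1.8.3 stands in the submitters' processing notes. A plain log2 scale and a variance-stabilised one could not be told apart, so no difference was turned into a fold. The authors' present calls were not used here. The brightest 18420 probes by mean signal were kept, the number in the design text, down to a mean of 8.34.

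The groups were tested 2-sided over the kept probes by limma (version 3.58.1, R 4.3.3; functions lmFit and eBayes), and p-values were adjusted by Benjamini-Hochberg. Probes were named from the platform annotation, in which 34885 probes had 1 symbol, 18 several and 10378 none. A gene was represented by its kept probe with the highest mean. Of 12 members with several kept probes, 9 had the same call on each and 0 opposite calls. Every member is named. Members called with a size of at least 0.5 are given on every array by rule, and the other per-array values were chosen after seeing the data. Up to 4 called genes of each neighbouring list are named, or its 2 brightest. Members and lists were chosen with earlier results of these data known.

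Deviations from the group means correlated weakly between same-numbered mutant and control arrays (0.165, 0.155 and 0.224 over the kept probes). Arrays with different numbers were not compared in this way, and the titles do not state a pairing. The main fit was therefore unpaired, and the replicate number served as a block only in an alternative fit. The steps were tested on simulated data, in which 50 probes were changed at each size. limma called 12% of the changes of 0.3, 58% of those of 0.5 and 94% of those of 1. Far fewer probes were changed there than were called here, so these shares need not hold for the members. A gene not called is not shown to be unchanged. The number of arrays limits the precision. Alternatives were other brightness filters, cyclic loess, an intensity trend, the replicate block, leaving out each array, the mean over a gene's probes, a difference of at least 1 and the muscle alternatives.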

Additional observations from a re-analysis of the deposited data

How the results depend on the processing

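Among the 37 tested members, 0 differences that were called changed sign in any alternative. With the replicate block 3 members were higher and 9 lower, and apart from Pgam2 the block changed no member's call. Fits without single arrays gave 4598 to 7502 called probes, 2 to 5 members higher and 5 to 11 lower, with medians from -0.12 to -0.0574. The highest count of members higher came without mutant array 3, which added Pgam1 and Pdha1, and the lowest count lower came without control array 2, which ended the calls of Pfkm, Aldoa and Mdh2. Without control array 2 and mutant array 3 together, a choice made after seeing the data, 4140 probes were called, 4 members were lower and the median was -0.0364. With the muscle marker covariate, also chosen afterwards and without overlap between the groups, 4904 probes were called, 3 members were lower and the median was 0.00483. Testing all probes gave a median of -0.046, through the addition of 4 dim members, and ended the calls of Pfkm (adjusted p = 0.0627) and Aldoa (0.0552). Aldoa was also lost without control array 3 (0.0708) and Pfkm without mutant array 2 (0.0678) or 3 (0.0589). Pgam2 was called with the stricter filter (0.0378) and the intensity trend (0.026). With a difference of at least 1 required, 0 members were higher and 1 lower. Signals near 8.24, the median of all probes, leave falls such as that of Aldoc without a measured lower end.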
